A study of Mus musculus with 22 samples.

Results

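The suppressors of cytokine signalling (SOCS) are a family of 8 genes in the mouse, Cish and Socs1 to Socs7. Their probes were taken by RefSeq accession from an array of liver RNA, which gave 10 of 41174 probes and 8 of 33767 gene names. Socs4 and Socs6 each had 2 probes and the other members 1. All 8 genes passed the filter on dim signals, and 26191 genes were tested in all. The whole family was taken and no member was picked by its values, although earlier results of these data were known.

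The mice were of the ICR strain and 8 weeks old, per the labels, and the liver RNA of 2 to 5 mice was pooled for each hybridisation. The series' design describes sham surgery and vehicle for the first 2 groups, males (M) and females (F), which the labels call untreated. The other 8 groups had all lost the pituitary in adulthood (Hypox, hypophysectomised), which removes every pituitary hormone and not only growth hormone (GH). For each sex they were Hypox mice without GH, Hypox mice killed 30 min after 1 GH injection, Hypox mice killed 90 min after 1 injection, and Hypox mice that received a second injection 4 h after the first and were killed 30 min later (2 GH). The GH dose is not given in the sources used here. Each of 11 comparisons was read on 2 arrays of opposite dye, 22 arrays in total. Ratios are log2 of the first named group over the second, given for array 1 and then array 2, and the fitted value is their mean ± SE. That SE comes from a limma fit to all 22 arrays, so a gene has about the same SE in each comparison. A gene was called if limma's adjusted p (Benjamini-Hochberg over all genes tested in that comparison) was under 0.05 and both arrays went the same way.

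GH binds a receptor that has no kinase of its own and signals through the kinase JAK2, which activates transcription factors of the STAT family, above all STAT5 in liver. SOCS proteins are made in response to such signals and act back on them: a central SH2 domain binds phosphorylated tyrosines and a C-terminal SOCS box recruits a ubiquitin ligase. CIS, the product of Cish, and SOCS2 bind sites on activated receptors, and loss of Socs2 makes mice overgrow. SOCS1 and SOCS3 also carry a short region that inhibits the JAK kinase itself and are best known as brakes on interferon and interleukin-6 signals. SOCS4 to SOCS7 are less studied, and SOCS4 and SOCS5 have been tied to the epidermal growth factor receptor.

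STAT dimers bind the palindrome TTCNNNGAA, which reads the same on both strands, so the start regions of the members that hold it are shown, whether or not the member was called. RefSeq's GRCm38.p6 table held a window from 250 bases before to 50 after the annotated start for 4 members, Cish, Socs1, Socs3 and Socs4. Cish held the motif in 2 places, both in the first 20 bases after its annotated start, and Socs3 held it in 1, and no match was found in the windows of Socs1 and Socs4. Of 32851 such windows in the table, 8.3% held at least 1 match and 0.457% at least 2. Capitals mark the motif below, and each sequence is read along the strand of its gene. The first line is chr9:107296559-107296658 on the plus strand, the 100 bases before the start of Cish, the second is chr9:107296659-107296678, bases 1 to 20, and the third is chr11:117969467-117969566 on the minus strand, 200 to 101 bases before the start that the table uses for Socs3. That start lies inside the span of the gene given further on, which reaches farther upstream, so this stretch is within the annotated gene.
Cish, before the start: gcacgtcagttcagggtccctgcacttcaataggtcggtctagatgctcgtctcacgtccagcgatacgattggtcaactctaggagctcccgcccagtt
Cish, from the start: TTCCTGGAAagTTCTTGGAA
Socs3, before the start used: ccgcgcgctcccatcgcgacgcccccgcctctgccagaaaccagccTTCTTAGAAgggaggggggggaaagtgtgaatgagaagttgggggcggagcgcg
A match is a description of these letters, and binding was not measured here.

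Y-linked genes followed the sexes in the labels: Eif2s3y differed by at least 6.31 on the 6 arrays between the sexes and by at most 0.55 on the 16 arrays within a sex. The latter include the 2 GH comparison of females, which the series' design lists as read against male Hypox and the labels as read against female Hypox. All 7 hepatocyte markers tested (of 10) were well above background in every group, with a summed log2 level of 19.0 to 19.7. In Hypox over sham, however, 3 of those 7 were called lower in males (median of the list -0.27), and in females 4 were called lower and 1 higher (-0.53). Of all genes tested, 37.3% were called in males and 31.1% in females there, so the male count is near that share. In the same comparison 5 of 6 lymphocyte markers in males and 4 of 6 in females were called higher (medians 0.64 and 0.32). So were 4 of 5 endothelial markers in males and 1 of 5 in females (0.30 and 0.16), the latter below the share of all genes. The part of these cell types in the falls of Cish and Socs2 was not tested. With bulk RNA, fewer cells of a type and less RNA per cell cannot be told apart. All 3 pancreas acinar markers tested (of 6) were called higher in male 2 GH, where 19.3% of all genes were called. Their array medians were 0.61 and 3.91, and their part in the results of that comparison was not tested. A list of 12 tested skeletal muscle markers (of 14) moved with some comparisons, with array medians of 2.44 and 2.83 in sham males over sham females, -2.63 and -2.84 in male Hypox over sham, and -3.12 and -2.93 in female 2 GH. It moved on 1 array alone in 4 other comparisons, male GH 30 min (3.01 against -0.038), male GH 90 min (2.22 against 0.043), male 2 GH (0.014 against 2.83) and GH 30 min males over females (2.93 against -0.036), and its part in the results was not tested beyond leaving those 4 arrays out.

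The level of each channel, normalized within and between arrays, was read as well. The Hypox side of both arrays of a GH comparison read alike: over all genes tested, the median difference between the 2 readings was at most 0.094 in males and 0.11 in females, against 0.12 to 0.17 in males and 0.11 to 0.17 in females between readings of different GH comparisons. For Socs3 the gap was at most 0.068 in males and 0.21 in females within a comparison, and 1.09 to 2.79 and 0.90 to 3.60 between comparisons. The labels give Hypox pools of 3, 3 and 5 males and of 3, 2 and 2 females for GH 30 min, GH 90 min and 2 GH. The labels do not say that both arrays of a comparison used 1 Hypox pool, but where they did, p-values leave out the spread between Hypox mice, and different GH times were set against different Hypox pools. A fit of the single-channel levels, chosen after seeing the data, therefore took the Hypox readings of each GH comparison as 1 value and compared the treated readings with all 3 Hypox values of their sex.

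Cish (chr9:107296659-107302784, GRCm38.p6) and Socs2 (chr10:95383903-95417321), the receptor-binding members, had lower ratios in both sexes after removal of the pituitary. This comparison asked what the liver loses with the pituitary. Cish read -4.39 and -3.89 in females, both arrays far below sham, and fell by 4.14 ± 0.68 (17.6-fold; adjusted p = 0.00062). In males it read -4.21 and -0.61, so 1 array carried most of the change, and it fell by 2.41 ± 0.68 (5.32-fold; adjusted p = 0.0137). Without array 1 the male value was -0.80 (adjusted p = 0.551). Socs2 read -4.44 and -3.19 in females, a fall of 3.81 ± 0.39 (14.1-fold; adjusted p = 2.05e-05), and -3.62 and -1.49 in males, a fall of 2.55 ± 0.39 (5.86-fold; adjusted p = 0.000242).

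The 2 male arrays differed mainly on their sham side. On the log2 intensity scale, Cish read 13.75 and 13.76 on the arrays of the sham male replicate labelled as a pool of 4 mice, and 10.66 and 10.49 on those of the replicate labelled as a pool of 3. The first pool lay in the range of sham females (13.23 to 14.01) and the second near the top of the male Hypox readings (8.98 to 10.52). Socs2 followed the same order with a smaller gap, 13.84 and 13.87 in the pool of 4 and 12.54 and 12.67 in the pool of 3, against 13.74 to 14.07 in sham females. Readings that carry the same replicate number differed by at most 0.18 for Cish and 0.13 for Socs2 in sham males, and readings of different replicates by up to 3.27 and 1.33. Replicate numbers here follow the scanner files, and the deposited value table swaps both replicates in most comparisons, so which pool size belongs to which reading is not certain.

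Other members moved little in this comparison. Socs4 (chr14:47276920-47296102) read -0.45 and -0.42 in males and fell by 0.43 ± 0.094 (adjusted p = 0.00292), and in females it read -0.41 and -0.075 and was not called (adjusted p = 0.0674). Socs5 (chr17:87107278-87137647) read 0.27 and 0.37 in males, a rise of 0.32 ± 0.11 (adjusted p = 0.0372), and 0.14 and 0.28 in females (adjusted p = 0.176). The male call of Socs4 was lost without array 2 (-0.39; adjusted p = 0.062), and that of Socs5 without array 1 (0.41; adjusted p = 0.111) or array 2 (0.23; adjusted p = 0.334). That made 4 of 8 members called in males, where 37.3% of all genes were called, and 2 of 8 in females, where 31.1% were, so the counts are near the background. The median ratio of the 8 members was -0.038 in males and -0.17 in females, against 0.006 and -0.0033 for all genes. Socs1, Socs3, Socs6 and Socs7 were not called in either sex.

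**Figure D1:**
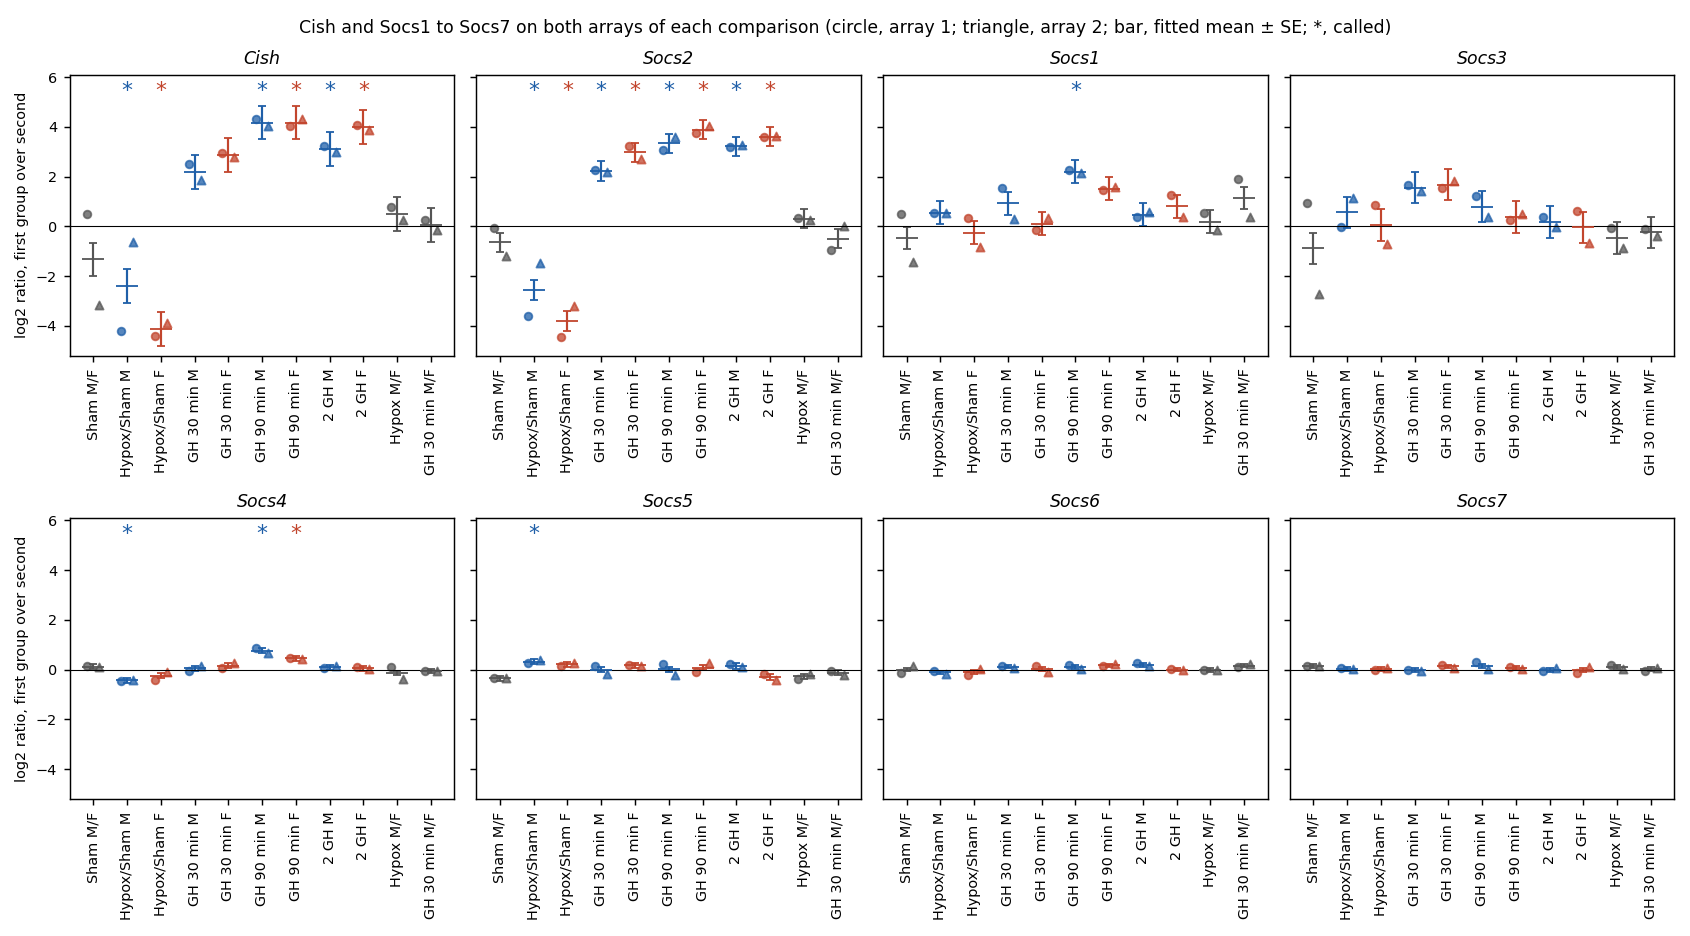
The log2 ratio of each SOCS gene (y axis) is plotted for the 11 comparisons (x axis), with a circle for array 1, a triangle for array 2, a bar for the fitted mean ± SE and an asterisk where the gene was called; blue is a comparison within males, red within females and grey between the sexes. Cish and Socs2 lie below 0 after removal of the pituitary, least so on male array 2 (-0.61 and -1.49), and far above 0 at every GH time. Socs5, Socs6 and Socs7 lie between -0.40 and 0.37 on every array.

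The GH comparisons asked how fast the liver without a pituitary answers to the hormone. At 30 min, Socs2 had already risen in both sexes. It read 2.26 and 2.19 in males (2.22 ± 0.39, 4.66-fold; adjusted p = 0.0197) and 3.23 and 2.70 in females (2.97 ± 0.39, 7.81-fold; adjusted p = 0.0269). Cish read 2.52 and 1.85 in males and 2.95 and 2.80 in females, and neither value of the fit (2.19 ± 0.68 and 2.88 ± 0.68) was called (adjusted p = 0.104 and 0.255). In a fit without the sham arrays, whose Cish ratios were the most uneven, the same values were called (adjusted p = 0.00249 in males and 0.000277 in females). Against all 3 Hypox values per sex, Cish was 1.24 higher in males (adjusted p = 0.304) and 1.91 higher in females, and was called in neither. Without the 4 arrays with a muscle difference, the male Cish value was 1.27. Of the 8 members 1 was called in each sex, Socs2, where 2.51% of genes were called in males and 0.0191% in females, and in females Socs2 was therefore 1 of 5 genes called.

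These 30 min calls depended on single arrays. Without array 1 the Socs2 value was 1.98 in males (adjusted p = 0.166) and 2.48 in females (adjusted p = 1), and without array 2 it was 2.46 (adjusted p = 0.123) and 3.45 (adjusted p = 0.421). Against all 3 Hypox values per sex, Socs2 was 1.84 higher in males (adjusted p = 0.0327) and read 2.36 in females (adjusted p = 0.119).

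At 90 min both genes stood higher. Cish read 4.31 and 4.03 in males (4.17 ± 0.68, 18-fold; adjusted p = 0.00403) and 4.02 and 4.31 in females (4.17 ± 0.68, 18-fold; adjusted p = 0.0065). Socs2 read 3.07 and 3.58 in males (3.33 ± 0.39, 10.0-fold; adjusted p = 0.00052) and 3.74 and 4.05 in females (3.89 ± 0.39, 14.8-fold; adjusted p = 0.000318). All 4 arrays of each gene lay above 3, and on male array 2, where the muscle markers read 0.043, Cish was at 4.03 and Socs2 at 3.58. With either female array left out Cish lost its call (3.95, adjusted p = 0.0786, without array 1 and 4.38, adjusted p = 0.145, without array 2), as it did in males without array 1 (3.65; adjusted p = 0.16), while Socs2 stayed called without any 1 of these arrays. The ratios at 90 and at 30 min did not differ by a called amount for either gene in either sex. For Cish the difference was 1.99 in males (95% interval -0.094 to 4.06; adjusted p = 0.305) and 1.29 in females (-0.79 to 3.37; adjusted p = 0.824). For Socs2 it was 1.11 (-0.089 to 2.30; adjusted p = 0.32) and 0.93 (-0.27 to 2.12; adjusted p = 0.733).

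The levels themselves were set against all Hypox readings. In males Cish read 8.98 to 10.52 over 10 Hypox readings (9.84 ± 0.63, SD), 10.84 to 11.63 over 4 readings at 30 min (11.26 ± 0.40) and 14.55 and 14.80 at 90 min, ranges that do not overlap. The female ranges did not overlap either, at 8.25 to 10.25 (9.24 ± 0.82), 11.05 to 11.33 (11.19 ± 0.12), and 14.27 and 14.52. The share of all genes whose ranges stay apart in this way was not counted. In the fit of the single-channel levels, male levels at 90 min exceeded those at 30 min by 3.44 for Cish (adjusted p = 0.00877) and 2.21 for Socs2 (adjusted p = 0.0139), both called. The share of all genes called in that fit was not counted. In females the differences were 3.27 and 2.18 (adjusted p = 0.0546 and 0.0663). The Hypox values cancel in such a difference, so it compares treated levels across arrays and leaves out the Hypox side of each array. The Hypox readings of Cish on the GH 90 min arrays (10.49 and 10.52 in males, 10.25 and 10.21 in females) lay above those on the GH 30 min arrays (9.11 and 8.98, and 8.26 and 8.25).

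After the second injection Cish and Socs2 were high again or still. Cish read 3.22 and 3.00 in males (3.11 ± 0.68, 8.63-fold; adjusted p = 0.00606) and 4.09 and 3.87 in females (3.98 ± 0.68, 15.8-fold; adjusted p = 0.0053). Socs2 read 3.18 and 3.26 in males (3.22 ± 0.39, 9.32-fold; adjusted p = 0.000127) and 3.58 and 3.62 in females (3.60 ± 0.39, 12.1-fold; adjusted p = 0.000386). Cish lost its call without male array 1 (2.61; adjusted p = 0.159) and without either female array (3.48, adjusted p = 0.142, and 4.47, adjusted p = 0.0916). They were the 2 of 8 members called in each sex, where 19.3% of genes were called in males and 8.43% in females. Whether this is what remained of the first response, 4 h and 30 min earlier, or an answer to the second injection cannot be told apart, since no mice killed just before the second injection are among the groups.

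Ordered by level, male Cish was highest at 90 min (mean 14.68), then after 2 injections (13.31 and 13.73), in sham (10.49 to 13.76), at 30 min and in Hypox, with the sham readings spanning those of their neighbours. In females the order was 90 min (mean 14.40), sham (13.23 to 14.01), 2 injections (13.05 and 13.28), 30 min and Hypox, and only sham and 2 injections overlapped. Socs2 had the same order in females, with 14.45 and 14.75 at 90 min, 13.74 to 14.07 in sham, 13.62 and 13.65 after 2 injections, 11.87 to 12.74 at 30 min and 9.00 to 10.72 in Hypox, and there no ranges overlapped. In males Socs2 read 14.16 and 14.57 at 90 min, 12.54 to 13.87 in sham, 13.16 and 13.24 after 2 injections, 11.57 to 12.17 at 30 min and 9.35 to 11.18 in Hypox, and only the sham range overlapped a neighbour. Some of these readings share a pool, so they are not separate samples, and the share of all genes whose ranges stay apart was not counted.

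**Figure D2:**
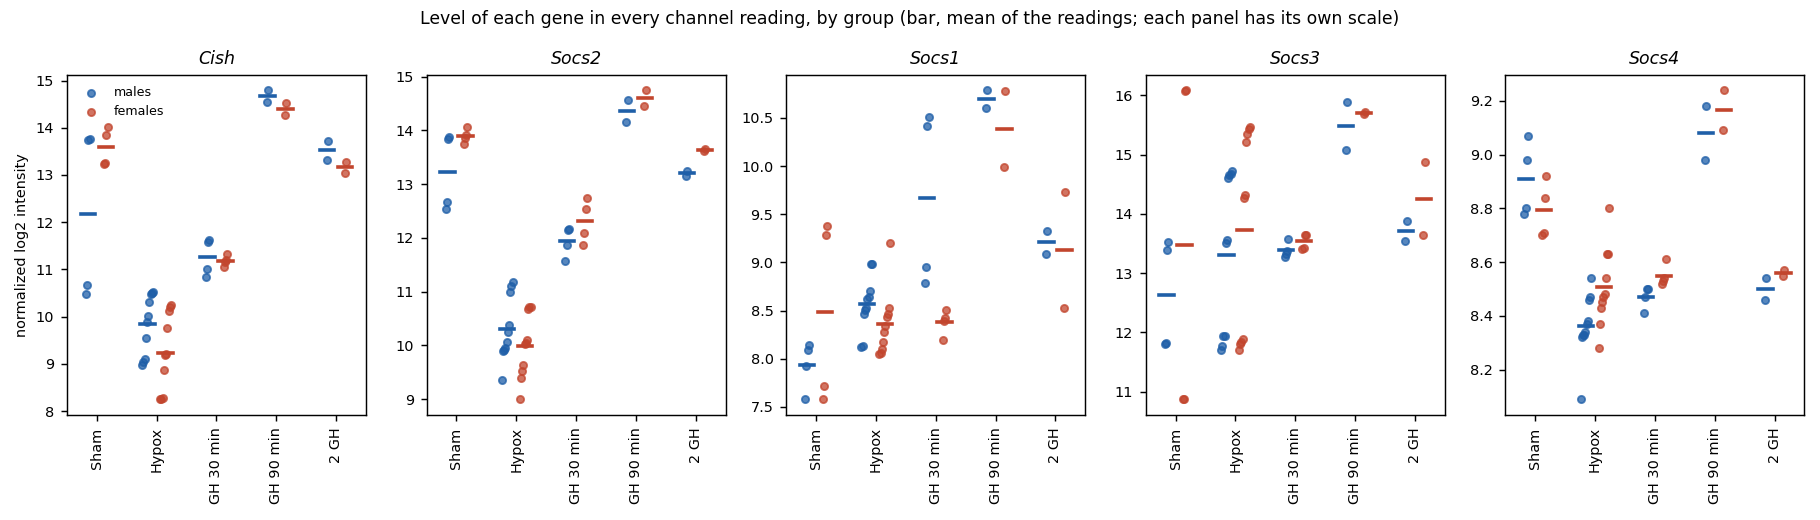
Normalized log2 intensity (y axis, own scale in each panel) of 5 SOCS genes is plotted for every channel reading by group (x axis), blue for males and red for females, with a bar at the mean. Cish and Socs2 climb from Hypox to 30 min to 90 min in both sexes, male Socs1 at 30 min splits into readings near 10.5 and near 8.9, and Socs3 spans 11.71 to 15.47 within female Hypox alone.

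Socs1 (chr16:10783808-10785536) and Socs3 (chr11:117966079-117970336), the members that inhibit the kinase, were read next and were not tested against each other. Socs1 read 2.26 and 2.14 at 90 min in males, a rise of 2.20 ± 0.46 (4.60-fold; adjusted p = 0.0155), and 1.45 and 1.59 in females, which was not called (1.52 ± 0.46; adjusted p = 0.108). The male and female ratios differed by 0.68 (95% interval -0.73 to 2.09; adjusted p = 0.801), so no sex difference was shown. The male call was lost without either array (2.05, adjusted p = 0.254, without array 1 and 2.35, adjusted p = 0.155, without array 2), and it held against all 3 Hypox values (2.02; adjusted p = 0.0389). After 2 injections Socs1 read 0.36 and 0.58 in males and 1.26 and 0.37 in females and was not called. The neutrophil markers (4 tested of 6) had medians of 1.18 and 1.12 on the male 90 min arrays, and their part in the Socs1 value was not tested.

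At 30 min Socs1 divided the males. It read 1.53 and 0.31 against Hypox in males, and -0.14 and 0.34 in females. The male pool labelled with 4 mice had levels of 10.51 and 10.42 on its 2 arrays, and the pool labelled with 3 mice 8.95 and 8.79, against 8.12 to 8.98 in male Hypox. Array 1 of the direct comparison of GH 30 min males over females, which read the pool of 4, gave 1.91 and array 2 gave 0.37 (1.14 ± 0.46; adjusted p = 0.339). That pool was also the side with more muscle RNA (medians 3.01 and 2.93 on its 2 arrays) and higher macrophage markers (5 tested of 7; medians 0.96 and 1.1), whose part in the Socs1 value was not tested.

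Socs3 was called in none of the 11 comparisons, though it had ratios over 1 on all 4 arrays at 30 min. They were 1.65 and 1.44 in males (1.55 ± 0.63, 2.92-fold; adjusted p = 0.215) and 1.53 and 1.82 in females (1.68 ± 0.63, 3.20-fold; adjusted p = 0.556). In the fit without the sham arrays the male value was called (adjusted p = 0.0399). At 90 min the ratios were 1.22 and 0.36 in males and 0.26 and 0.50 in females, and after 2 injections 0.38 and -0.027 in males and 0.60 and -0.67 in females. Against all 3 Hypox values the 30 min value was 0.093 in males and -0.29 in females (adjusted p = 0.978 and 1), and the 90 min value was 2.10 and 1.88 (adjusted p = 0.448 and 0.699), so which time read higher turned with the choice of Hypox readings.

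The levels of Socs3 differed widely between the readings of a group. Sham females read 10.88 and 10.87 for Socs3 in replicate 1 and 16.09 and 16.07 in replicate 2, a gap of 37.3-fold between pools that each read within 0.018 on different slides. Sham males read 11.82 and 11.80 in replicate 1 and 13.39 and 13.52 in replicate 2. Among the Hypox readings on the GH arrays, Socs3 was low on the 30 min arrays (11.93 and 11.93 in males, 11.88 and 11.83 in females). It was higher on the 2 GH arrays (13.50 and 13.56, and 14.27 and 14.32) and highest on the 90 min arrays (14.65 and 14.72, and 15.43 and 15.21). The treated readings at 30 min (13.27 to 13.58 in males, 13.41 to 13.65 in females) thus lay above the Hypox readings of their own arrays and below those of the 90 min arrays. In the direct comparison of Hypox males over females, both channels were low on array 1 (11.71 and 11.80) and both high on array 2 (14.60 and 15.47).

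**Figure D3:**
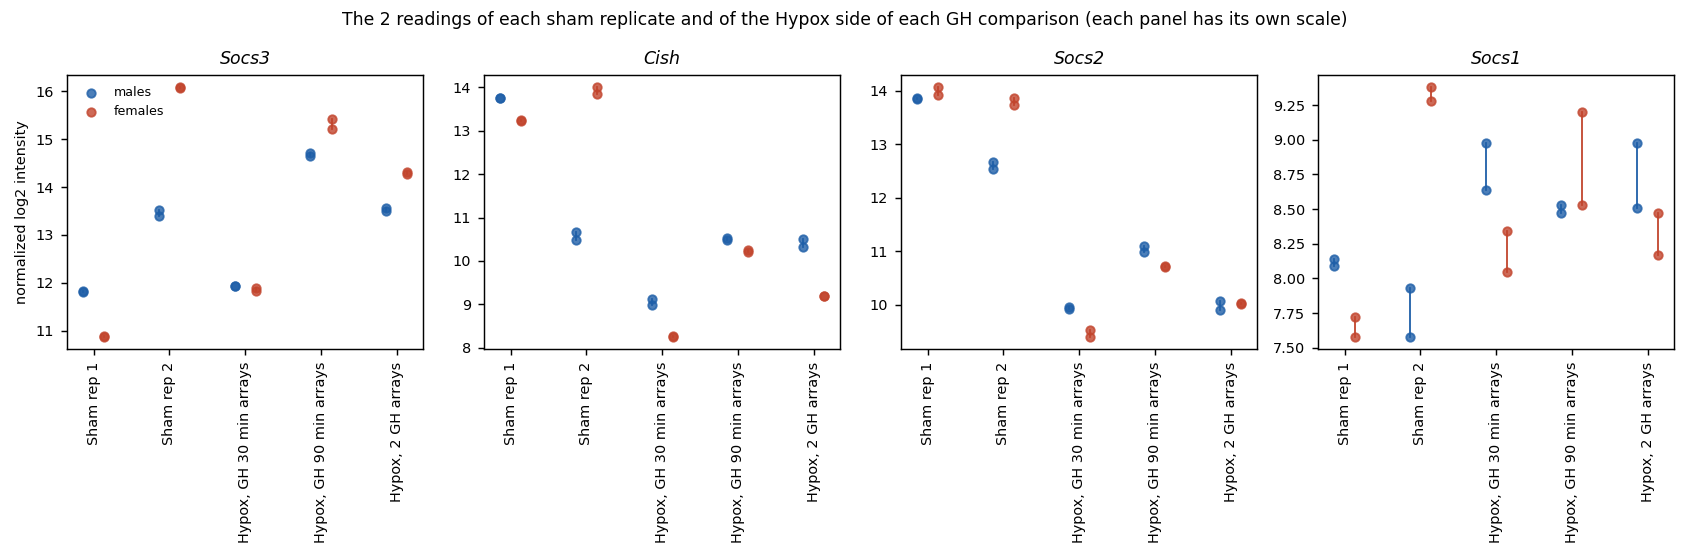
Normalized log2 intensity (y axis, own scale in each panel) of 4 SOCS genes is plotted for the 2 readings of each sham replicate and of the Hypox side of each GH comparison (x axis), joined by a line, blue for males and red for females. Readings of the same set nearly coincide for Socs3, Cish and Socs2, while the sets of the same group differ by up to 5.22 for Socs3 in sham females.

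In males the changes of Cish and Socs2 from 30 to 90 min were called between single-channel levels, without a share of all genes beside them, and not in the fit of the ratios. Socs4 was the member whose change in time was called in the fit of the ratios. Its 2 probes, A_51_P165424 and A_52_P212065, were well above background on every array. The first read 0.85 and 0.66 at 90 min in males (0.76 ± 0.094, 1.69-fold; adjusted p = 0.000748) and 0.46 and 0.43 in females (0.45 ± 0.094, 1.36-fold; adjusted p = 0.0238), all 4 arrays higher than Hypox. The other probe read 0.73 and 0.59 in males (adjusted p = 0.00101) and 0.29 and 0.29 in females, where it was not called (adjusted p = 0.105). The female call was lost without either array (0.38, adjusted p = 0.235, without array 1 and 0.51, adjusted p = 0.227, without array 2). At 30 min Socs4 read -0.049 and 0.16 in males and 0.073 and 0.25 in females, and after 2 injections 0.069 and 0.13 in males and 0.088 and 0.012 in females, with no call.

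These time differences were themselves called in males, where Socs4 was the 1 of 8 members called for 90 against 30 min (2.47% of genes were called) and for 2 GH against 90 min (7.61%). In females no member was called for these contrasts, in which 0.157% and 2.06% of genes were called, and for 2 GH against 30 min none was called in males (14.6% of genes) or in females (1.41%). The ratio at 90 min was higher than at 30 min by 0.70 ± 0.13 (95% interval 0.41 to 0.99; adjusted p = 0.0216), and the ratio after 2 injections was below it, a difference of -0.66 ± 0.13 (-0.94 to -0.37; adjusted p = 0.0109). In females the differences were 0.29 (-0.0012 to 0.57; adjusted p = 0.602) and -0.40 (-0.68 to -0.11; adjusted p = 0.141). The male 2 GH arrays were on slide 5, scanned on day 2, with Hypox pools of 5 mice. The male 90 min arrays were on slides 1 and 2, scanned on day 1, with Hypox pools of 3. Beyond slide or scan day as a random block, the part of these settings in the male value of -0.66 was not tested. Against all 3 Hypox values, Socs4 rose at 90 min by 0.70 in males (adjusted p = 0.00285) and 0.62 in females (adjusted p = 0.0119). Its level was 8.98 and 9.18 at 90 min in males and 9.09 and 9.24 in females, above every Hypox reading (8.09 to 8.54 and 8.28 to 8.80) and every reading at 30 min (8.41 to 8.50 and 8.52 to 8.61). Without male GH 90 min array 1, on which muscle markers were high, the value was 0.60 (adjusted p = 0.0701) and both time differences lost their call (0.54, adjusted p = 0.24, and -0.50, adjusted p = 0.126).

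Counted over the family at 90 min, 4 of 8 members were called in males (Cish, Socs1, Socs2 and Socs4), where 4.97% of genes were called, and 3 of 8 in females (Cish, Socs2 and Socs4), where 3.17% were. All of these calls were higher after GH. The median ratio of the 8 was 0.77 in males and 0.41 in females, against 0.0018 and 0.015 over all genes tested. No member was called lower at any GH time.

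Socs5, Socs6 and Socs7 (chr11:97362292-97398542), whose roles in liver are less known, were called at no GH time. The widest of their GH ratios were those of Socs5 after 2 injections in females, -0.19 and -0.40 (-0.29 ± 0.11; adjusted p = 0.129). Socs6 read between -0.20 and 0.25 on all 22 arrays, and its other probe stayed between -0.20 and 0.22. Socs7 had 1 of 10 female Hypox readings not well above background, and its GH ratios lay between -0.14 and 0.29.

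The direct comparisons of males with females asked whether the family itself differs between the sexes, and in them no member was called. In sham mice 8.78% of genes were called and 0 of 8 members. Cish read 0.51 and -3.17 (-1.33 ± 0.68; adjusted p = 0.294), Socs3 0.94 and -2.70, Socs1 0.51 and -1.45, and Socs2 -0.082 and -1.20, so array 2 was below -1 for all 4, and array 1 was above 0 for 3 of them and near 0 for Socs2. Socs5 was even, at -0.35 and -0.34 (-0.35 ± 0.11; adjusted p = 0.0763), and 1 of 8 members had an unadjusted p under 0.05. It was called with the scanner software's log ratio (-0.39; adjusted p = 0.0346), with the deposited value table (-0.38; adjusted p = 0.0334) and in a model over the loop of groups (-0.34; adjusted p = 0.0253).

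In Hypox males over females 1.63% of genes and 0 of 8 members were called by limma (1 at an unadjusted p under 0.05), with Cish at 0.50 ± 0.68 and Socs2 at 0.31 ± 0.39. In GH 30 min males over females 0.504% of genes and 0 of 8 members were called by limma (2 at an unadjusted p under 0.05), with Cish at 0.048 ± 0.68 (95% interval -1.42 to 1.52). The contrasts of the GH response between the sexes, which share no array, called no member either, where 0.00764% of genes were called at 30 min, 0.00764% at 90 min and 1.98% after 2 injections, and 6.73% for the effect of removing the pituitary. At 90 min the male minus female difference was 0.0054 for Cish (-2.07 to 2.08; adjusted p = 0.999) and -0.57 for Socs2 (-1.76 to 0.63; adjusted p = 0.807). At 30 min the differences were -0.69 (-2.77 to 1.39) and -0.74 (-1.94 to 0.45), and after 2 injections -0.87 (-2.95 to 1.21) and -0.38 (-1.57 to 0.82). The fall after removal of the pituitary was smaller in males by 1.73 for Cish (-0.35 to 3.81; adjusted p = 0.331) and by 1.26 for Socs2 (0.068 to 2.46; adjusted p = 0.207), and both were called in the loop model (adjusted p = 0.0443 and 0.0382).

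**Figure D4:**
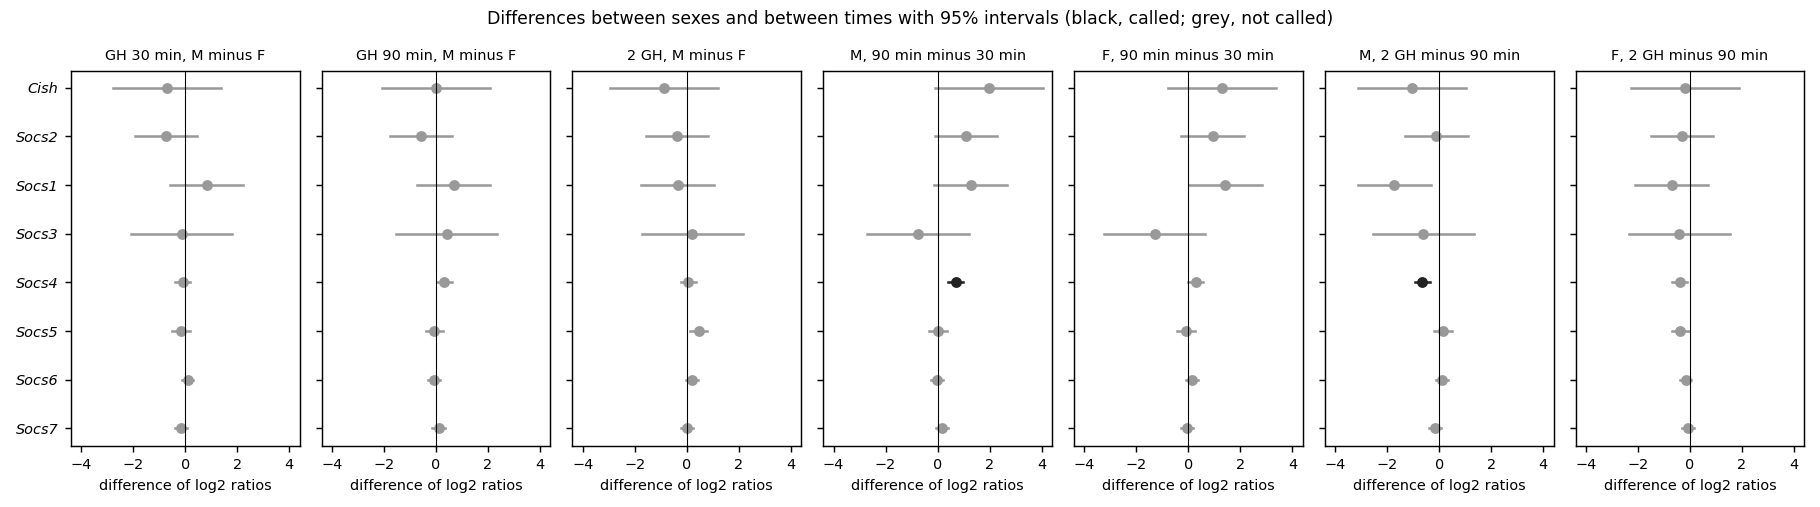
Differences of log2 ratios (x axis) between sexes and between times are plotted for the 8 SOCS genes (y axis) as fitted values with 95% intervals, black where called. Socs4 in males is called for 90 min minus 30 min and for 2 GH minus 90 min, and the intervals of Cish, Socs1 and Socs3 are the widest.

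The other genes of the pathway were read from lists. Of 12 genes from the GH receptor to STAT5, none was called at 30 or 90 min in either sex. At 30 min 2.51% of all genes were called in males and 0.0191% in females, and at 90 min 4.97% and 3.17%. After removal of the pituitary Stat5a, a close relative of Stat5b, fell by 0.87 ± 0.17 in males and by 0.94 ± 0.17 in females, and the insulin receptor substrate Irs1 rose by 0.67 ± 0.13 and 1.08 ± 0.13. Prlr, the receptor for prolactin, fell by 2.04 ± 0.27 in females and rose by 1.24 ± 0.27 there and by 0.89 ± 0.27 in males after 2 injections. Stat5b itself fell by 0.86 ± 0.20 in males after 2 injections (adjusted p = 0.00793).

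Of 11 GH and STAT5 targets, 6 fell after removal of the pituitary in each sex, beside 37.3% of all genes called in males and 31.1% in females. Igf1, which mediates growth, fell by 2.46 ± 0.16 in males and by 3.25 ± 0.16 in females, and Igfals, which holds IGF1 in the circulation, fell by 1.90 ± 0.10 in males and fell by 2.49 ± 0.10 in females. At 90 min 4 of 11 rose in each sex, beside 4.97% of all genes called in males and 3.17% in females, among them Myc, a growth regulator (2.62 ± 0.53 in males and 2.97 ± 0.53 in females). Igfals rose by 0.81 ± 0.10 and 0.52 ± 0.10. After 2 injections Igf1 was higher by 1.22 ± 0.16 in males and 1.53 ± 0.16 in females, and the repressor Bcl6 was lower, at -1.76 ± 0.28 and -1.45 ± 0.28. At 30 min 1 of 11 was called in males, Gadd45g, a growth arrest gene (2.47 ± 0.59; adjusted p = 0.0473), beside 2.51% of all genes, and 0 in females.

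Among 12 other SOCS box genes, 8 were called after removal of the pituitary in males (7 lower) and 4 in females (3 lower), beside 37.3% and 31.1% of all genes tested. Wsb1, which has WD repeats before its SOCS box, fell by 0.83 ± 0.22 in males and by 1.22 ± 0.22 in females and rose at 90 min in females (0.97 ± 0.22; adjusted p = 0.0342) and after 2 injections in females (1.05 ± 0.22; adjusted p = 0.0143). Spsb2 went the other way, 1.46 ± 0.10 and 1.18 ± 0.10 after removal of the pituitary and -0.68 ± 0.10 and -0.45 ± 0.10 at 90 min in males and females. Of 5 partners of the ubiquitin ligase, 1, the scaffold Cul5, was called at 30 min in males (0.68 ± 0.14; adjusted p = 0.0295), beside 2.51% of all genes, and none in females. After removal of the pituitary the scaffolds Cul2 and Cul5 fell in both sexes, 2 of 5 beside 37.3% and 31.1% of all genes called, and after 2 injections in males 3 of 5 rose (Cul2, 0.59 ± 0.10, Rbx1, 0.33 ± 0.06, and Eloc, 0.30 ± 0.088), beside 19.3%. Of 13 other brakes on JAK and STAT signals, none was called at 30 min and 1 at 90 min in females (Pias1, 0.30 ± 0.072), beside 3.17% of all genes. After 2 injections in males 2 were called (the adaptor Grb10, 1.21 ± 0.18, and the phosphatase Ptpn11, 0.35 ± 0.06), below the 19.3% of all genes. After removal of the pituitary 2 were higher and 3 lower in males, and 1 higher and 1 lower in females, beside 37.3% and 31.1%. The part of the pancreas markers in the male values of these lists after 2 injections was not tested.

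The list nearest to SOCS3 was uneven between arrays, as that gene was in sham males over females but not on the female 30 min arrays. Of 13 acute phase genes, 2 were called at 90 min in males (4.97% of all genes were), Fgg (0.093 and 1.63) and the receptor Il1r1 (0.43 and 0.92), and none in females or at 30 min. The median of that list was 0.33 and -0.94 on the arrays of sham males over females, where Socs3 read 0.94 and -2.70, and -0.44 and 1.14 on the female 30 min arrays, where Socs3 read 1.53 and 1.82.

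By Pearson correlation of the ratios over all 22 arrays, which share pools, slides and Hypox sides, the gene with a symbol most like Cish was Socs2 (r = 0.974), followed by Phlda1 (0.959), Wsb1 (0.929), Cdca7 (0.92) and Ect2 (0.919). The nearest to Socs2 were Cish (0.974), Phlda1 (0.953), Paqr9 (0.943), Plin5 (0.935) and Wsb1 (0.929). Phlda1 and Wsb1 stood in both lists of 5. For Socs3, genes near it were Hdc (0.823), Tnip2 (0.744), Ier5 (0.741) and Msgn1 (0.712), and none of these was in the lists of Cish or Socs2.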

How the data were processed

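Mean and local background intensities of each spot are as the authors deposited them, from Agilent Feature Extraction per the file headers, with no normalization. The scanner software's log10 ratio, also in the authors' scanner files, and the deposited value table of log2 ratios served as alternatives. Each column of that table equals the log2 form of 1 scanner file's ratio, 6 of the same replicate and 16 of the other, and the scanner files' numbering was kept. Ratios were turned by the dyes in the labels.

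Background was corrected by normexp (offset 50) and arrays normalized by loess, leaving out 1639 control spots of 45018 and outlier spots. Probes were named by RefSeq accession (22072 of 41174; the others kept the file's name). The brightest probe stood for a gene, and a gene was tested if well above background in a channel on both arrays of a comparison. limma 3.58.1 in R 4.3.3 fitted 11 comparisons and a dye term (residual df 10), called at an adjusted p under 0.05. Levels of single channels were also scaled between arrays (Aquantile). On simulated data made for the male 90 min comparison (26191 genes), 56% of genes changed by 0.5, 92% of those changed by 1 and 100% of those changed by 2 or 3 (log2) were called. Of the unchanged genes, 11 were called there. The simulated noise was independent between arrays and the changed genes were drawn at random. The rates therefore do not hold for shared pools or for genes of wide spread such as Cish and Socs3 (SE 0.68 and 0.63).

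Array medians were 294 to 376 in green and 415 to 522 in red, and 69.3% to 77.7% of probes were well above background in all channels but 1. The exception, at 57.1%, was the Hypox channel of female Hypox over sham array 2, which also had the most outlier spots (159). There Xist, higher in females, read -1.92, against -0.41 on array 1. Having 2 arrays a comparison limits the precision. By the labels the 2 arrays of a comparison differ in pool size on 1 or both sides, except in the 2 GH comparisons, where the sizes are equal. The labels do not say whether pools of a group share mice. P-values measure the spread between arrays, which may be technical on a side where both arrays used the same pool. Members and lists were chosen with earlier results of these data known. All 8 members are named with every probe, and other genes only from the lists where called, up to 4 per list and comparison by size, or by the likeness rule. The alternatives changed background correction, normalization, dim-gene filter, samples fitted, model, dye term, eBayes prior, slide, scan day, replicate block, values and probe choice, or left out an array; comparing with 3 Hypox values per sex and leaving out 4 arrays with a muscle difference were chosen after seeing the data. A gene like Socs3 and 1 gene list are not reported here.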

Additional observations from a re-analysis of the deposited data

Results flagged for a closer look

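In male mice the Socs4 response at 90 min differed from that at 30 min by 0.70 and that after 2 injections differed from that at 90 min by -0.66 on the log2 scale, both by a test of the difference itself. The latter sets arrays of different slides and scan days against each other.

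Among 48 groups of channel readings of the 8 genes, 2 had a reading far from the others, and chance gives about 1 in 20 such groups. Socs1 read 9.20 in female Hypox on array 2 of the GH 90 min comparison, where the other array of that comparison read 8.53. Socs4 read 8.09 in male Hypox on array 2 of Hypox males over females, where array 1 read 8.38. Some of the 10 readings in each group come from the same pool, so they are not independent.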

How the results depend on the processing

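The number of SOCS calls stayed within 1.5 times for Hypox over sham (6) and 2 GH (4) under every alternative run. For GH 30 min (2 calls) it was 1 without background correction, 0 with median centring, 5 without the sham arrays, 4 in the loop model, 1 with 3 Hypox values per sex, 1 without the 4 arrays with a muscle difference and 1 without any 1 array. For GH 90 min (7) it was 4 without the 4 muscle arrays and 4 to 6 with 1 array left out. For sham males over females (0) it was 1 with the scanner's log ratio, 1 in the loop model, 1 with the deposited table, and 0 to 1 with 1 array left out (Socs3 without array 1). For the differences (2) it was 0 with median centring, 4 in the loop model, 0 without the 4 muscle arrays and 0 to 2 with 1 array left out. Among uncalled values, 49 of 1146 turned in sign under other settings (size at most 0.43) and 26 of 138 with 1 array left out (at most 1.02). For Cish and Socs2 these include Cish in GH 30 min males over females (-0.022 in the loop model, -0.11 to 0.20 with 1 array left out), Cish in sham males over females (-2.99 to 0.33 with 1 array left out), and Socs2 in GH 30 min males over females (-1.22 to 0.24 with 1 array left out, 0.31 without the 4 muscle arrays). The causes were not tested, beyond fewer arrays where arrays were left out.

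Of 318 called values under other settings, 302 stayed called and 16 did not, and of 38 with 1 array left out 19 did not; none turned. Residuals of the main fit on replicate 1 arrays correlated from -0.36 to 0.87 over 55 pairs of comparisons, 20 of them over 0.1. Sham males over females correlated at -0.35 with male Hypox over sham, where sham males stand on opposite sides. It correlated at 0.60 with female Hypox over sham, where sham females stand on the same side. A pool shared on opposite sides gives a negative value, so the count over 0.1 cannot decide whether the numbers pair arrays. Sham readings of the same number nearly coincide, and the main fit did not pair arrays by number. With the replicate block, GH 30 min had 1 call (female Socs2 was lost, adjusted p = 0.0584), GH 90 min 8 (female Socs1 gained, adjusted p = 0.0184) and the differences 3 (Socs1 in males, 2 GH minus 90 min, -1.73, adjusted p = 0.0286), and no other call changed. Slide or scan day as a random block moved no count.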
